A study of Mus musculus with 12 samples.

Results

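The genes described here make the enzymes, inhibitors and anchoring proteins that cut, protect and cross-link the extracellular matrix. They were taken by symbol: every measured gene named Adamts or Adamtsl, Mmp, Timp, Ltbp, Thbs, Lox or Loxl. The symbol rule uses no measured values, but it was chosen with earlier results of these data known. This gave 62 genes of the 23185 that carry 1 gene symbol, out of 25206 probe sets in all, each gene with 1 probe set. The set held 18 Adamts, 5 Adamtsl, 22 Mmp, 4 Timp, 4 Ltbp and 4 Thbs genes, and 5 genes of the Lox and Loxl family.

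Matrix metalloproteinases (Mmp) are zinc enzymes that cut collagens, elastin and other matrix proteins, and the tissue inhibitors of metalloproteinases (Timp) block them by binding their active site. Adamts enzymes are related proteases with thrombospondin repeats that cut proteoglycans and process procollagens, while the Adamtsl proteins share those repeats but have no protease domain. Lysyl oxidases (Lox, Loxl) oxidise lysines so that collagen and elastin fibres can be cross-linked, Ltbp proteins hold TGF-beta in the matrix in its latent form, and thrombospondins (Thbs) are secreted glycoproteins that bind cells, collagen, proteases and latent TGF-beta. In growing fat this machinery remodels the matrix around enlarging adipocytes and new vessels.

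RNA was measured on Affymetrix arrays in abdominal fat of 12 mice. Their strain, BKS.Cg-Dock7m +/+ Leprdb/J, becomes obese and diabetic because its leptin receptor is defective. All mice were 12 weeks old and all received adenovirus that encodes short hairpin RNAs (shRNAs), and fat was frozen 1 week after injection. The control group was given 4e+09 plaque-forming units of a virus with a control shRNA. In the LCN13 group and in the TSC22D4 group, 2e+09 units were directed against the named gene and 2e+09 units were control virus. The combined group, LCN13 + TSC22D4, received 2e+09 units of each gene-directed virus and 0 units of control virus. Each group had 7 animals, and the 3 on arrays were picked as representative ones rather than at random. In every comparison with control a gene-directed virus replaced control virus, and the effects of adding the former and removing the latter cannot be told apart. The same holds for the combined group against either single shRNA group, and for the effect of either shRNA averaged over the other. The sources used here do not name the promoter that drives the shRNAs or the cells that took up virus.

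The 8 adipocyte markers were bright, with mean log2 signals between 12.35 and 14.03, as fits the labelled tissue. The targeted gene Tsc22d4 had mean log2 signals of 7.68 in control and 7.67 in the TSC22D4 group (log2 difference -0.0074, limma adjusted p = 0.989), so no fall of the target was detected in this tissue. Lcn13, listed as Obp2a, lay near the lower end of the scale in all groups, with means between 5.72 and 5.76, where an array cannot show a fall. A direction below is therefore that of a group labelled by its virus, not of a measured loss of the target in fat. Of 8 interferon-stimulated genes, 6 passed as lower in each shRNA group than in control. Their mean level relative to the 12-array mean was 1.54 to 1.86 on the control arrays. It was -0.50 to -0.40 on the LCN13 arrays, -0.60 to -0.37 on the TSC22D4 arrays and -0.77 to -0.71 on the combined arrays. That list moves with every comparison with control below. Of its 8 genes, 5 also passed in the TSC22D4 effect averaged over the LCN13 shRNA. In the LCN13 effect averaged over the TSC22D4 shRNA, 6 passed. In the interaction, the TSC22D4 difference with the LCN13 shRNA minus that without it, 5 passed. The part of this list in any of the results below was not tested.

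Of the 62 genes, 4 passed in at least 1 of the comparisons at a Benjamini-Hochberg adjusted p under 0.05 over all 23185 genes: Thbs1, Thbs2, Ltbp4 and Adamts10. These were 6.45% of the 62, and 3.25% of all genes passed by the same rule. The other 58 passed in none. In the TSC22D4 group against control, 1 gene passed (Thbs2, lower), while 1.17% of all genes passed and 0.88% passed as lower. In the LCN13 group against control, 2 genes passed (Ltbp4 and Adamts10, both higher), while 1.44% of all genes passed and 0.397% passed as higher. In the combined group against control, 0 of the 62 passed in limma, with 1.34% of all genes passing. At an unadjusted p under 0.05 that last comparison held 6 of the 62, with 11% of all genes. Of the 62, the genes that passed made up 1.61% in TSC22D4 against control and 3.23% in LCN13 against control, where both were higher; with counts of 1 and 2 these shares are rough. The 3 comparisons share the same control arrays. Groups did not overlap for 9 of the 62 genes in TSC22D4 against control (16.6% of all genes), for 12 in LCN13 against control (15.7%) and for 9 in the combined group against control (14.9%).

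As a whole the set lay near 0. The median log2 difference of the 62 genes was 0.00065 for TSC22D4 against control, -0.0038 for LCN13 and 0.0033 for the combined group. Over all genes the same medians were -0.0022, 0.0040 and 0.0015. Of the 62 genes, 54, 53 and 56 lay within 0.25 of 0 in those comparisons. The median SD of the 62 genes within groups was 0.116 on the log2 scale, against 0.0647 over all genes.

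**Figure D1:**
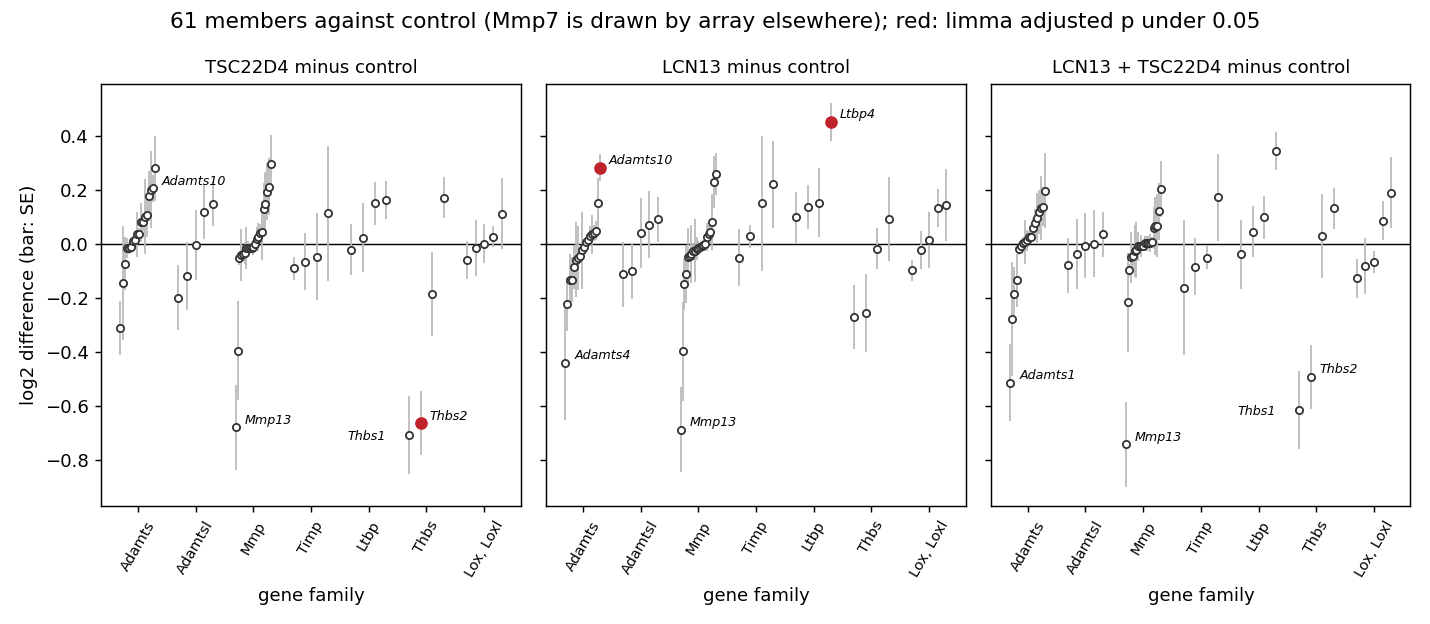
Log2 difference of each shRNA group from control (y axis, bars show the standard error) for 61 of the 62 genes, ordered by size within each gene family (x axis). Red points passed at a limma adjusted p under 0.05: Thbs2 in TSC22D4, Ltbp4 and Adamts10 in LCN13, and none in the combined group. Mmp7, whose standard error was 1.08, is not drawn.

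Dim probe sets limit what can be seen. Of the 62 genes, 22 (35.5%) had a 12-array mean below 6.36, the median of all named probe sets, near which differences are compressed. These were 8 Adamts genes, 13 Mmp genes (Mmp13 just below that median) and Thbs4, and 0 of them passed in any comparison. Of the 11592 genes below that median in all, 71 passed by the same rule, so a count of 0 in 22 says little. The dim Mmp genes included 8 of the 10 that neighbour each other on chromosome 9.

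The sequences that lie just upstream of 3 of the genes the results turn on are given here: Thbs2 and Ltbp4, which passed, and Mmp13, which lay lower in all 3 shRNA groups. Each is the 250 bases before the annotated start, 5′ to 3′ on the gene's strand, from RefSeq on the mouse build GRCm38.p6. Capitals mark 5 motifs searched for on both strands. The letters TATAAA were taken as a TATA-type promoter element, at which transcription of many regulated genes is positioned. The letters CCAAT were taken as the site read by the general factor NF-Y. The letters GGGCGG were taken as the site of Sp1-type factors, common in promoters of widely used genes. The letters TGANTCA were taken as the site of AP-1, the Fos and Jun factors. The fifth was the core of the interferon response element, named only. Thbs2 lies at chr17:14694263-14694512 on the minus strand, Ltbp4 at chr7:27337613-27337862 on the minus strand (the first of 3 annotated starts), and Mmp13 at chr9:7272264-7272513 on the plus strand.
Thbs2: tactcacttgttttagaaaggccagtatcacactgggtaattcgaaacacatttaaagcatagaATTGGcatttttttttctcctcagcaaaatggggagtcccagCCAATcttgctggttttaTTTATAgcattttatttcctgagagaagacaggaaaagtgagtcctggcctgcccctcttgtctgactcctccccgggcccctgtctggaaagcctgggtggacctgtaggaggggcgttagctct
Ltbp4: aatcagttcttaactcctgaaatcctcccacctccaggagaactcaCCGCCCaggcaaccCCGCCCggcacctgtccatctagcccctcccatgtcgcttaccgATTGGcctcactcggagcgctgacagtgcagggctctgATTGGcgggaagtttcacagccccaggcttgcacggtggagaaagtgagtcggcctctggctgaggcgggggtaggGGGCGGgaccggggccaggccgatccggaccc
Mmp13: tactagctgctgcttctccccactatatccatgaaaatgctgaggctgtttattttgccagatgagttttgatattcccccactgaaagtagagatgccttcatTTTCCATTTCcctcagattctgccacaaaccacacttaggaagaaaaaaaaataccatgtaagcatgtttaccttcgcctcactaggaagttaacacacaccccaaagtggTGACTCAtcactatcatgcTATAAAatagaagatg

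The Thbs2 window held the NF-Y letters on each strand and a reversed TATA-type element whose first base lies 126 bases before the start. The Ltbp4 window held 3 Sp1-type sites and 2 reversed NF-Y sites, and no TATA-type element. The Mmp13 window held a TATA-type element 16 bases before the start, an AP-1 site 35 bases before it and, on the other strand, a match to the interferon core 146 bases before it. No match overlapped another. Of the 62 genes, 42 had a start window in the RefSeq promoter set used here, with 48 windows in all. That set held none for Thbs1 and Adamts10, so their sequences are not given. An AP-1 site stood in 8 of these 48 (16.7%), and in 6.75% of all 32851 windows of the same length. A TATA-type element stood in 11 (22.9%, against 12.4% of all), an Sp1-type site in 25 (52.1%, against 32.7%), an NF-Y site in 12 (25%, against 33.8%) and the interferon core in 1 (2.08%, against 2.98%). A match in letters is a description of the window and shows no binding.

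Thbs1 and Thbs2 had their lowest group means where the TSC22D4 shRNA was given. Thbs2, a matricellular protein that restrains vessel growth and affects collagen fibril assembly, fell in the TSC22D4 group against control. Its log2 signals were 11.42, 11.22 and 11.41 in control and 10.66, 10.67 and 10.72 in TSC22D4. They were 11.22, 11.13 and 10.89 in LCN13 and 10.88, 11.08 and 10.61 in the combined group. All 9 arrays with a gene-directed virus lay below the lowest control array, LCN13 replicate 5 only just, and the 3 TSC22D4 arrays lay close together. The difference for TSC22D4 was -0.66 (SE 0.12, 95% interval -0.93 to -0.40, a fold of 0.631, limma adjusted p = 0.0313). For LCN13 it was -0.27 (adjusted p = 0.392), and for the combined group -0.49 (adjusted p = 0.0974).

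Thbs1, which activates latent TGF-beta and binds the receptors CD36 and CD47, had the same order of groups. Its log2 signals were 12.74, 12.30 and 12.27 in control and 12.36, 12.27 and 11.92 in LCN13. They were 11.87, 11.75 and 11.57 in TSC22D4 and 11.84, 11.76 and 11.87 in the combined group. All 6 arrays that had the TSC22D4 shRNA lay below all 6 that did not, although the lowest LCN13 array (11.92) came close to the highest of them (11.87). Against control, the TSC22D4 difference of -0.71 (SE 0.14) just missed the threshold (limma adjusted p = 0.0582), and that of the combined group was -0.61 (adjusted p = 0.0927). The TSC22D4 difference passed without LCN13 replicate 8 (0.0325), with array weights (0.0413), with only bright probe sets (0.0166) and with trend and robust options (0.0263). In LCN13 it was -0.25 (adjusted p = 0.529).

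Averaged over the LCN13 shRNA, the TSC22D4 effect rests on 6 arrays against 6. Control virus was 2e+09 or 0 units on the 6 arrays with the TSC22D4 shRNA and 4e+09 or 2e+09 units on the other 6. The part of this dose in the averaged effect was not tested. In the averaged comparison 2 of the 62 genes passed, both lower, while 1.39% of all genes passed and 0.832% passed as lower. Thbs1 fell by 0.53 on the log2 scale (SE 0.10, 95% interval of the difference -0.76 to -0.30, a fold of 0.691, limma adjusted p = 0.0413). Thbs2 fell by 0.44 (SE 0.08, adjusted p = 0.0391). Thbs1 was the 1 gene of the 62 whose 6 and 6 arrays did not overlap, which 1.13% of all genes showed. The TSC22D4 difference in mice with the LCN13 shRNA minus that in mice without it was 0.35 for Thbs1 (adjusted p = 0.834) and 0.44 for Thbs2 (adjusted p = 0.607), so no difference in the effect was shown.

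The thrombospondin calls stand close to the threshold. Thbs2 in TSC22D4 against control no longer passed in 8 of the 12 fits that left out 1 array, with adjusted p up to 0.118 (without any of the 3 control or the 3 TSC22D4 arrays, LCN13 replicate 6 or combined replicate 13). The averaged effect was lost in 10 of 12 such fits for Thbs1 (up to 0.103; it held without control replicate 1 and LCN13 replicate 8) and in 8 of 12 for Thbs2 (up to 0.0993; without control replicates 1 and 3, LCN13 replicates 5 and 6, the 3 TSC22D4 arrays and combined replicate 13). Differences kept their direction in each of these fits. Without LCN13 replicates 5 and 6 together, a step added after the data were seen, the averaged effect was -0.40 for Thbs1 (adjusted p = 0.334) and -0.35 for Thbs2 (adjusted p = 0.332). The 9 fibroblast and preadipocyte markers lay between -0.20 and -0.018 in control and between -0.13 and 0.067 in TSC22D4, and 0 of 9 passed. Of 5 smooth muscle markers, 1 passed in TSC22D4 against control, with levels of -0.13 to 0.03 in TSC22D4 and -0.25 to 0.08 in control. The part of these lists in the thrombospondin values was not tested. In tissue, fewer cells of a type and less RNA per cell cannot be told apart.

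The other thrombospondins did not pass. Thbs3, a cartilage and bone matrix protein, had mean log2 signals of 7.57, 7.66, 7.38 and 7.60 for control, LCN13, TSC22D4 and combined (F test over the 4 groups, limma adjusted p = 0.689). Thbs4, found in tendon and muscle matrix, was dim, with means of 6.10, 6.08, 6.27 and 6.23. Its averaged TSC22D4 effect was 0.16 (adjusted p = 0.185), opposite in sign to those of Thbs1 and Thbs2.

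**Figure D2:**
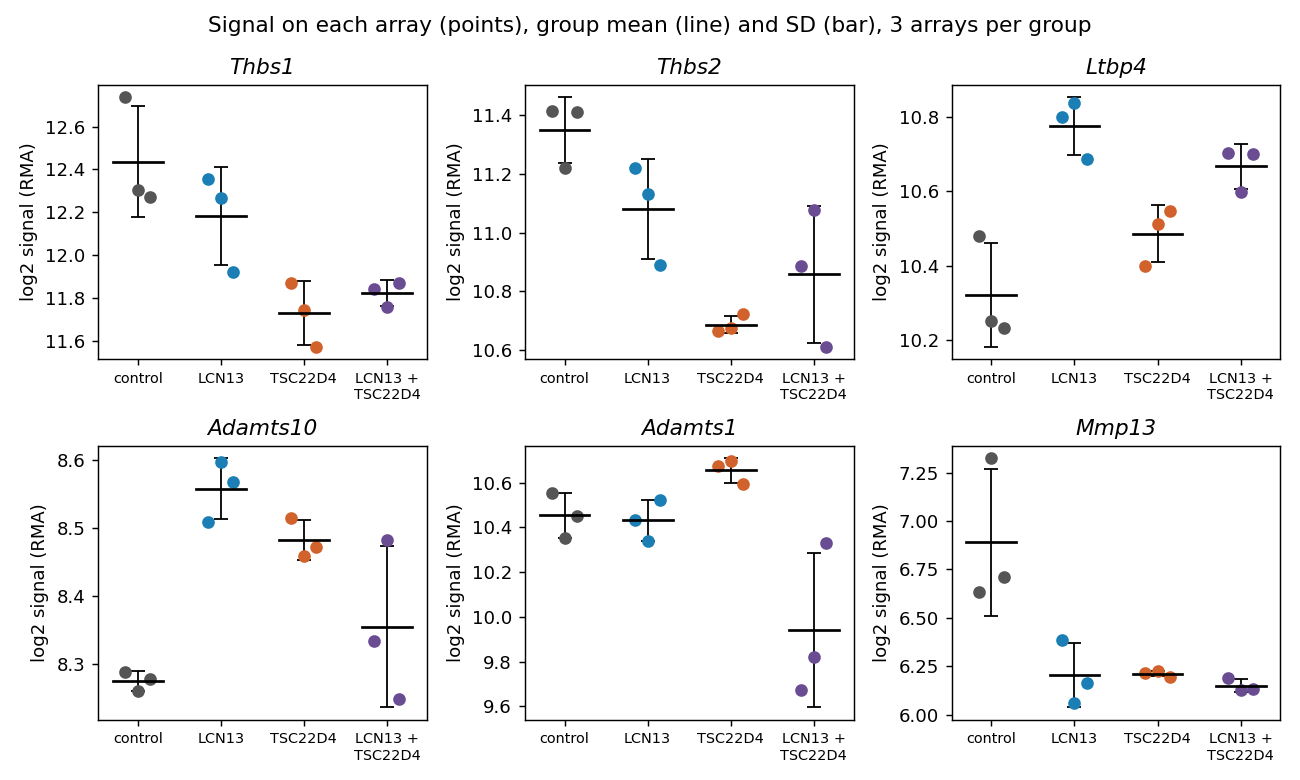
Log2 signal (y axis) of Thbs1, Thbs2, Ltbp4, Adamts10, Adamts1 and Mmp13 on each of the 12 arrays, 3 for each group (x axis), with a line at each group mean and a bar for the SD. The 6 arrays with the TSC22D4 shRNA lie below the other 6 for Thbs1, the 6 with the LCN13 shRNA lie above the other 6 for Ltbp4, and Mmp13 is highest in the 3 control arrays.

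Ltbp4 differed with the LCN13 shRNA. It encodes a latent TGF-beta binding protein of elastic fibres that is needed for their assembly. Its log2 signals were 10.48, 10.25 and 10.23 in control and 10.80, 10.84 and 10.69 in LCN13. They were 10.40, 10.51 and 10.55 in TSC22D4 and 10.70, 10.60 and 10.70 in the combined group. The 6 arrays that had the LCN13 shRNA lay above the 6 that did not, while TSC22D4 overlapped control. Ltbp4 rose in LCN13 by 0.45 (SE 0.07, 95% interval 0.29 to 0.61, a fold of 1.37, limma adjusted p = 0.0143). In the combined group the difference from control was 0.34 (adjusted p = 0.0545), and in TSC22D4 it was 0.16 (adjusted p = 0.406).

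In the LCN13 effect averaged over the TSC22D4 shRNA, Ltbp4 was the 1 gene of the 62 that passed, while 1.08% of all genes passed and 0.354% passed as higher. It rose by 0.32 (SE 0.05, 95% interval 0.20 to 0.43, limma adjusted p = 0.0206). Control virus was 2e+09 or 0 units on the 6 arrays with the LCN13 shRNA and 4e+09 or 2e+09 units on the other 6. The part of this dose in the averaged effect was not tested. No overlap between 6 and 6 arrays was seen in 0.716% of all genes. Ltbp4 was also the 1 gene of the 62 that passed the F test over the 4 groups (adjusted p = 0.0403), which 1.61% of all genes passed. The F test call was lost in 10 of 12 fits that left out 1 array (up to 0.114; it held without control replicate 1 and LCN13 replicate 8), after cyclic loess (0.0551) and without LCN13 replicates 5 and 6 (0.214). The interaction was -0.27 (adjusted p = 0.586).

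The Ltbp4 call in LCN13 against control was lost in 3 of 12 fits that left out 1 array, with adjusted p up to 0.0664 (without control replicate 2, or LCN13 replicate 5 or 6), and in the fit to only the 6 arrays compared (0.139). Without control replicate 1, the combined group also passed against control (0.00911). It passed too with array weights (0.0146), with only bright probe sets (0.0356) and with trend and robust options (0.0410). It missed in the other 11 fits that left out 1 array, after cyclic loess (0.0785) and with only the 6 arrays compared (0.210). The averaged effect was lost in 6 of 12 (up to 0.0608; without control replicate 2, LCN13 replicate 5 or 6, TSC22D4 replicate 10, or combined replicate 13 or 16). LCN13 replicates 5 and 6 had the highest levels of 8 mesothelial markers, 0.69 and 0.71 above the 12-array mean, where replicate 8 lay at -0.29 and the other groups between -0.42 and 0.13; 0 of the 8 passed. Of 5 smooth muscle markers, 1 passed in LCN13 against control, and their level was 0.11 to 0.27 in LCN13 and -0.25 to 0.08 in control. Of 8 T and NK cell markers, 1 passed in each shRNA group against control and 1 in TSC22D4 against LCN13. Their level was -0.25 to -0.074 in LCN13, below 0.0083 to 0.22 in control and 0.018 to 0.16 in TSC22D4 with no overlap, and -0.11 to 0.036 in the combined group. The 3 liver markers lay at 0.20 to 0.84 in LCN13 and -0.66 to 0.25 in control, with 0 passing. The part of these lists in the Ltbp4 and Adamts10 results was not tested. Without LCN13 replicates 5 and 6, which leaves 1 LCN13 array assumed to vary like the rest, the Ltbp4 difference was 0.37 (adjusted p = 0.296).

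The remaining latent TGF-beta binding proteins did not pass. Ltbp3, a carrier of latent TGF-beta with a role in bone, had log2 signals of 11.04, 10.81 and 11.03 in control, 11.06, 11.01 and 11.22 in LCN13, 11.03, 11.12 and 11.19 in TSC22D4, and 10.99, 11.02 and 11.17 in the combined group. All groups overlapped (F test, limma adjusted p = 0.635). Ltbp1, the classic carrier of latent TGF-beta, had means of 7.75, 7.85, 7.73 and 7.80 for control, LCN13, TSC22D4 and combined (adjusted p = 0.836). Ltbp2, a microfibril protein that does not bind latent TGF-beta, had means of 7.49, 7.64, 7.51 and 7.45 (adjusted p = 0.776).

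Among the Adamts proteases, Adamts10 was the 1 gene that passed. It encodes an enzyme that associates with fibrillin microfibrils. Log2 signals were 8.29, 8.26 and 8.28 in control and 8.51, 8.60 and 8.57 in LCN13. They were 8.52, 8.46 and 8.47 in TSC22D4 and 8.33, 8.48 and 8.25 in the combined group. Both single shRNA groups lay above control with no overlap, while the combined group overlapped it. Adamts10 rose in LCN13 by 0.28 (SE 0.05, 95% interval 0.17 to 0.40, a fold of 1.22, limma adjusted p = 0.0281). In TSC22D4 the difference was 0.21 (adjusted p = 0.116) and in the combined group 0.08 (adjusted p = 0.688).

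This call was lost in 8 of 12 fits that left out 1 array, with adjusted p up to 0.113 (without any control or LCN13 array, or TSC22D4 replicate 10 or 12). It was also lost with limma's trend and robust options (0.104) and after cyclic loess normalization (0.0592). Without LCN13 replicates 5 and 6, the arrays with the high mesothelial markers, the difference was 0.29 (adjusted p = 0.248). Without combined replicate 14, Adamts10 also passed in TSC22D4 against control (0.0206), as it did with only the 6 arrays compared (0.0399). It missed there in the other 11 fits that left out 1 array and in the other alternatives run for that comparison.

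Adamts1, an aggrecan- and versican-cutting protease that also restrains vessel growth, was lowest in the combined group. Its log2 values were 10.56, 10.35 and 10.45 in control and 10.43, 10.34 and 10.52 in LCN13. They were 10.68, 10.70 and 10.59 in TSC22D4 and 9.67, 9.82 and 10.33 in the combined group. The TSC22D4 arrays were the highest of all and the combined arrays the lowest, with combined replicate 16 just below the lowest LCN13 array. The combined group differed from TSC22D4 by -0.71 (SE 0.14, limma adjusted p = 0.366) and from control by -0.51 (adjusted p = 0.161), and neither passed. Combined replicate 16 decided this: without it the differences were -0.91 (adjusted p = 0.0294) and -0.71 (adjusted p = 0.00307), and Adamts1 also passed in the averaged LCN13 effect (0.0051), the interaction (0.00888) and the F test (0.00299). In the other 11 fits that left out 1 array, none of these passed. With all 12 arrays, the F test of Adamts1 passed with only bright probe sets (0.0436) and with trend and robust options (0.0470). It missed in the main fit (0.107), with array weights (0.0529) and after cyclic loess (0.107). The 3 red blood cell markers lay at 0.93 to 1.28 in the combined group and -1.56 to 0.70 elsewhere, with 0 of 3 passing, and their part in the Adamts1 values was not tested.

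No gene of the 62 passed in a direct comparison between shRNA groups. For the combined group against TSC22D4, 0 of 62 and 0% of all genes passed in limma, and at an unadjusted p under 0.05 it was 4 of 62 and 6.91% of all. For the combined group against LCN13, 0 of 62 and 0.00863% of all passed, and 6 of 62 and 10.7% did so unadjusted. For TSC22D4 against LCN13, which carry equal doses of control virus, 0 of 62 and 1.03% of all passed, and 13 of 62 and 17.7% did so unadjusted. Arrays did not overlap for 20 of the 62 genes in TSC22D4 against LCN13 (25.2% of all genes), for 14 in the combined group against LCN13 (16.5%) and for 5 in the combined group against TSC22D4 (14.5%). The interaction was passed by 0 of 62 and 0.397% of all genes, and unadjusted by 5 of 62 and 7.08%. For Adamts10 the interaction of -0.41 (SE 0.07, 95% interval -0.57 to -0.25) had an adjusted p of 0.0573, and passed without combined replicate 14 (-0.47, adjusted p = 0.00831) and with array weights (0.0416).

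The aggrecanases Adamts4 and Adamts5 did not pass. For control, LCN13, TSC22D4 and combined, Adamts5 had mean log2 signals of 12.25, 12.40, 12.42 and 12.34. Adamts4 had means of 6.86, 6.42, 6.71 and 6.58, and its LCN13 difference of -0.44 (SE 0.21) had a limma adjusted p of 0.446. Its 3 control arrays ran from 6.42 to 7.13, a spread larger than most of its differences. Adamts5 lies beside Adamts1 on chromosome 16 in the reference, and its combined difference from control was 0.10 where that of Adamts1 was -0.51.

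The versican-cutting enzymes Adamts9 and Adamts15 did not pass either. Adamts9 had means of 10.27, 10.05, 10.20 and 10.09 for control, LCN13, TSC22D4 and combined. Adamts15 had means of 7.17, 7.12, 7.45 and 7.30, and its TSC22D4 difference of 0.28 had a limma adjusted p of 0.400. Adamts12, which cuts cartilage oligomeric matrix protein, had means of 10.07, 10.01, 10.17 and 10.27. Over the 18 Adamts genes the difference from control ran from -0.31 to 0.28 in TSC22D4, from -0.44 to 0.28 in LCN13 and from -0.51 to 0.20 in the combined group.

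Of the 5 Adamtsl genes, 0 passed in any comparison, and their differences from control lay between -0.20 and 0.15 in the 3 groups. Adamtsl4, which promotes fibrillin microfibril assembly, had means of 7.72, 7.76, 7.72 and 7.68.

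The metalloproteinases themselves gave 0 passing genes of 22. Mmp13, the main interstitial collagenase of rodents, came closest. Log2 signals were 6.63, 7.33 and 6.71 in control and 6.39, 6.06 and 6.16 in LCN13. They were 6.21, 6.22 and 6.20 in TSC22D4 and 6.19, 6.13 and 6.13 in the combined group. The 3 control arrays were the highest of the 12, with control replicate 2 far above the other 2, and the shRNA groups lay near the lower end of the scale. Against control, the differences were -0.68 for TSC22D4 (SE 0.16, limma adjusted p = 0.0942), -0.69 for LCN13 (adjusted p = 0.0812) and -0.74 for the combined group (adjusted p = 0.0618). Without control replicate 2 the differences were smaller but passed, at -0.46 for TSC22D4 (0.0413), -0.47 for LCN13 (0.0366) and -0.52 for the combined group (0.0219). Without control replicate 1, LCN13 (0.0421) and the combined group (0.0356) passed, and with array weights all 3 did (0.0167 to 0.0265).

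Only Mmp13 and Thbs2 of the 62 had all 9 shRNA arrays below all 3 control arrays, a pattern that 1.8% of all genes showed. The reverse pattern, all 9 above, was shown by 0 of the 62 and by 1.1% of all genes. The interferon-stimulated list was also higher on all 3 control arrays than on all 9 shRNA arrays. Control virus dose was highest in control too. It was 2e+09 units in each single shRNA group and 0 in the combined group. The part of either in this pattern was not tested.

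Mmp12, the macrophage elastase that is abundant in obese fat, was bright on every array. Signals on the log2 scale were 12.24, 12.49 and 12.42 in control and 12.72, 12.73 and 12.48 in LCN13. They were 12.42, 12.34 and 12.34 in TSC22D4 and 12.51, 12.41 and 12.41 in the combined group. The LCN13 arrays lay above the TSC22D4 arrays but overlapped control, with differences of 0.26 from control (SE 0.08, limma adjusted p = 0.183) and -0.27 for TSC22D4 against LCN13 (adjusted p = 0.119). The latter passed without LCN13 replicate 8 (0.0363) and with array weights. The 9 macrophage markers lay between -0.064 and 0.014 in LCN13 and between -0.13 and 0.23 in control, with 0 passing in any comparison with control.

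The gelatinases Mmp2 and Mmp9, which cut denatured collagen and basement membrane, did not pass. For control, LCN13, TSC22D4 and combined, Mmp2 had means of 12.07, 12.04, 12.22 and 12.14 (F test, limma adjusted p = 0.766). Mmp9 had means of 6.44, 6.41, 6.74 and 6.51, and its TSC22D4 difference of 0.30 (SE 0.11) had an adjusted p of 0.300. Mmp14, the membrane-bound protease that activates Mmp2 and is needed for growth of fat through collagen, had means of 10.93, 10.88, 10.97 and 10.91 (adjusted p = 0.946). The groups overlapped for all but Mmp9, whose TSC22D4 arrays lay above those of LCN13.

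Mmp11, a metalloproteinase first found in tumour stroma, had means of 8.59, 8.20, 8.20 and 8.38 for control, LCN13, TSC22D4 and combined. Its LCN13 difference was -0.40 and its TSC22D4 difference was -0.39 (SE 0.18, limma adjusted p = 0.455). Mmp3, a stromelysin that activates other metalloproteinases, had means of 6.10, 5.95, 6.23 and 6.05. Mmp19 had means of 10.64, 10.72, 10.85 and 10.84. None of these passed.

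Mmp7, matrilysin, an enzyme of glandular and ductal epithelium, varied more between mice of 1 group than any other of the 62. Its log2 values were 5.74, 8.67 and 9.50 in control and 9.90, 9.74 and 10.17 in LCN13. They were 8.46, 7.94 and 6.40 in TSC22D4 and 8.67, 6.10 and 9.43 in the combined group. Control replicate 1 and combined replicate 14 lay at the lower end of the scale, and the 3 LCN13 arrays were the highest of all. The LCN13 difference from control was 1.97 with an SE of 1.08 (95% interval -0.45 to 4.38, limma adjusted p = 0.509).

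After these values were seen, 5 genes known from epididymal or ciliated epithelium were set beside Mmp7: Adgrg2, Sntn, Hydin, Crabp1 and Lrp2. Over the 12 arrays the Pearson correlation with Mmp7 was 0.985 for Adgrg2, 0.958 for Sntn, 0.950 for Hydin, 0.955 for Crabp1 and 0.945 for Lrp2. Arrays of 1 group share a treatment and the genes were chosen after the values were seen, so these are descriptions. Adgrg2, a receptor of duct epithelium, was 7.90 on control replicate 1, 7.82 on combined replicate 14 and 11.18 on LCN13 replicate 8, the same arrays that were low and high for Mmp7. The part of such cells in the Mmp7 values was not tested. The mesothelial markers did not share this pattern: LCN13 replicate 8 was at -0.29 for them.

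**Figure D3:**
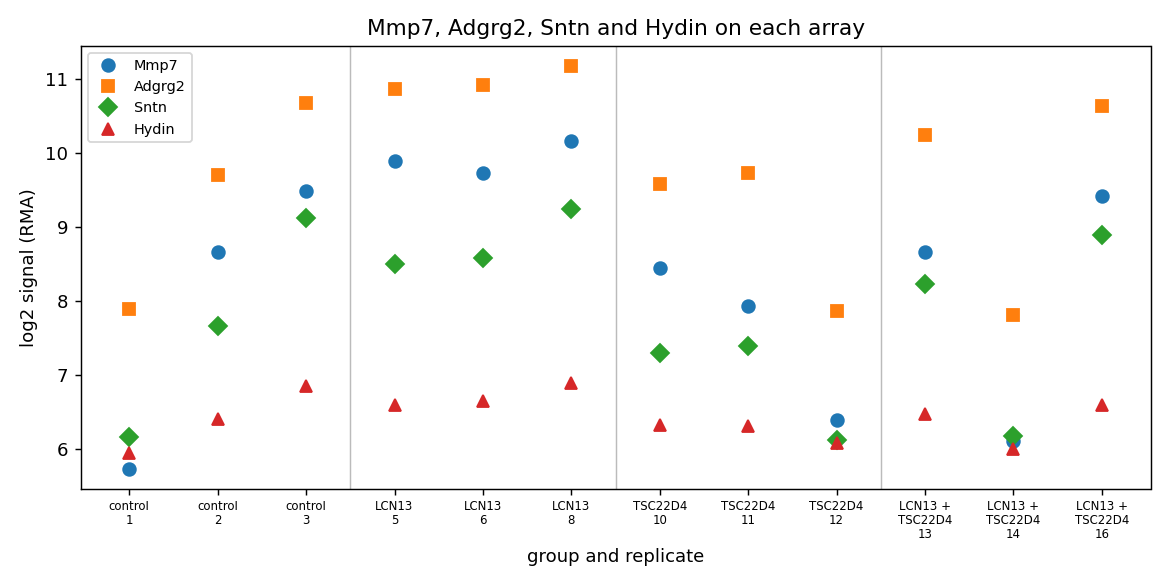
Log2 signal (y axis) of Mmp7 and of Adgrg2, Sntn and Hydin on each of the 12 arrays, grouped by shRNA and labelled with the replicate number (x axis). The 4 genes are low together on control replicate 1, TSC22D4 replicate 12 and combined replicate 14, and high together on the 3 LCN13 arrays. Control replicate 3 is high too: at 9.13 for Sntn and 6.86 for Hydin it lies above LCN13 replicates 5 and 6.

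In the reference, 10 of the 22 Mmp genes stand as 1 unbroken run on chromosome 9, in the order Mmp13, Mmp12, Mmp1b, Mmp3, Mmp1a, Mmp10, Mmp8, Mmp27, Mmp20 and Mmp7. Their values differed along the run. Mmp13 at one end had negative differences from control in the 3 shRNA groups, Mmp12 beside it had differences of 0.26, -0.02 and 0.06 for LCN13, TSC22D4 and the combined group, and Mmp7 at the other end varied by mouse. The 7 genes between Mmp12 and Mmp7 were all dim, and Mmp1a and Mmp1b are similar enough in sequence that they may share probe signal.

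**Figure D4:**
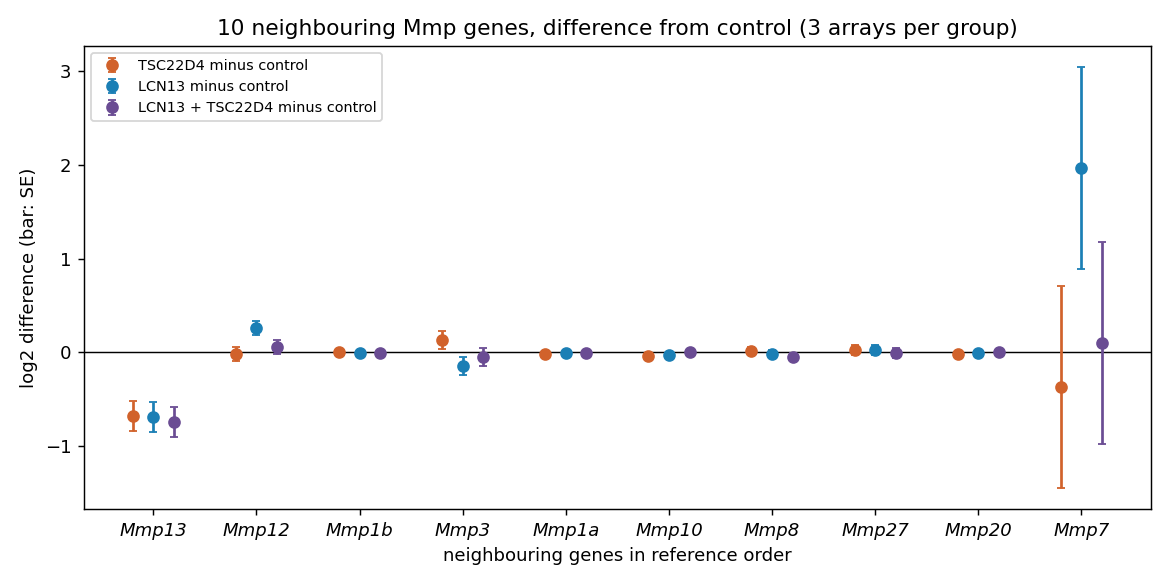
Log2 difference of each shRNA group from control (y axis, bars show the standard error) for 10 neighbouring Mmp genes in reference order (x axis). Mmp13 lies at -0.68, -0.69 and -0.74 for TSC22D4, LCN13 and the combined group, the dim genes in the middle lie near 0, and Mmp7 has the widest errors.

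Of the 4 inhibitors and 5 cross-linking enzymes, 0 passed in any comparison. Timp2, which blocks and also helps activate Mmp2, had log2 signals of 12.79, 12.85 and 12.77 in control and 12.84, 12.81 and 12.85 in LCN13. They were 12.74, 12.62 and 12.78 in TSC22D4 and 12.73, 12.81 and 12.72 in the combined group. Each shRNA group overlapped control, while the TSC22D4 and combined arrays lay below those of LCN13 (F test, limma adjusted p = 0.374). Timp3, which is bound to matrix and also blocks Adamts enzymes, had 12.30, 12.05 and 12.34 in control and 12.42, 12.53 and 12.42 in LCN13. It had 11.97, 12.36 and 12.23 in TSC22D4 and 12.57, 12.62 and 12.02 in the combined group. The LCN13 arrays lay above control, but the difference of 0.22 (SE 0.16) had an adjusted p of 0.643.

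Timp1, an inhibitor induced by inflammation, varied between mice. For control, LCN13, TSC22D4 and combined its means were 10.05, 10.21, 10.17 and 9.89, with SDs of 0.435, 0.0391, 0.322 and 0.376 (n = 3 arrays each; F test, limma adjusted p = 0.841). Timp4, an inhibitor found mainly in fat, heart and brain, had means of 12.53, 12.48, 12.46 and 12.44. Its TSC22D4 difference was -0.06 with a 95% interval from -0.30 to 0.17 (F test, adjusted p = 0.955).

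Lox, the founding member of the lysyl oxidases, had log2 signals of 12.78, 12.70 and 12.64 in control and 12.61, 12.63 and 12.58 in LCN13. They were 12.68, 12.76 and 12.76 in TSC22D4 and 12.61, 12.61 and 12.70 in the combined group. The LCN13 arrays lay just below control. The averaged LCN13 effect was -0.10 (SE 0.03, limma adjusted p = 0.185). Loxl4 had 6.88, 6.89 and 6.78 in control and 6.89, 7.01 and 7.07 in LCN13. It had 6.79, 6.98 and 6.79 in TSC22D4 and 6.86, 7.05 and 6.91 in the combined group, with all groups overlapping (F test, adjusted p = 0.567).

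Loxl1, which is needed for elastic fibre renewal, had means of 10.99, 11.01, 10.98 and 10.91 for control, LCN13, TSC22D4 and combined. Loxl2, a cross-linker of basement membrane collagen, had means of 9.26, 9.40, 9.37 and 9.45. Loxl3, which is needed for palate and spine cartilage in mice, had means of 8.09, 8.07, 8.03 and 7.96. None of the 5 passed, and the differences from control of this family lay between -0.13 and 0.19.

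**Figure D5:**
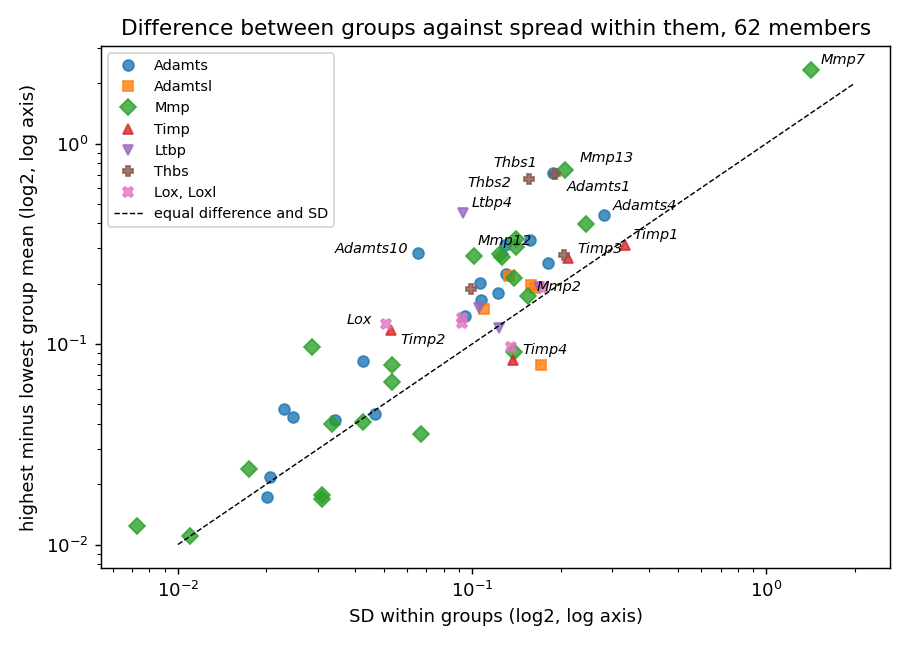
Highest minus lowest group mean (y axis, log2, log scale) against the SD within groups (x axis, log2, log scale) for the 62 genes, coloured by family; the dashed line marks equality. For 50 of the 62 the difference exceeds the SD and for 12 it does not. A range over 4 group means can exceed the SD with no treatment effect, so the line is not a test. This count was not made over all genes. At an unadjusted F test p under 0.05, 16.1% of the 62 and 16.1% of all genes passed. Thbs1, Thbs2, Ltbp4, Adamts10, Adamts1 and Mmp13 lie well above the line, while Mmp7 has the largest values on both axes.

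Genes that work with this set were followed in a list of 66 measured genes, chosen for their roles with earlier results of these data known. The roles were collagen processing, elastic fibres, the plasminogen system, Adam sheddases, cathepsins, other inhibitors, matrix substrates, and thrombospondin and TGF-beta partners. Of these, 1 passed in any comparison. Tgm2, a transglutaminase that cross-links matrix proteins, had means of 12.11, 12.03, 12.21 and 12.09 for control, LCN13, TSC22D4 and combined. It was higher in TSC22D4 than in LCN13 by 0.18 (SE 0.03, limma adjusted p = 0.0385), a comparison that 1.03% of all genes passed. This call was lost in 8 of 12 fits that left out 1 array (up to 0.130; without control replicate 2, LCN13 replicate 5 or 6, any TSC22D4 array, or combined replicate 13 or 14). It was also lost with only bright probe sets (0.0779), with trend and robust options (0.0732), with only the 6 arrays compared (0.079) and without LCN13 replicates 5 and 6 (0.492). Among 11 matrix substrate genes, which encode collagens, proteoglycans and fibronectin, 0 passed. Against control, 9 of 11 differences were positive in TSC22D4 (median 0.22), 8 in LCN13 (median 0.071) and 10 in the combined group (median 0.14). In TSC22D4 the other lists ran from 0 of 4 positive (other inhibitors) to 8 of 9 (thrombospondin and TGF-beta partners). Over all 66 genes, 41 were positive in TSC22D4 (median 0.034), 38 in LCN13 (median 0.0087) and 42 in the combined group (median 0.032). Of all genes, 47.6%, 54.1% and 51.7% were positive in these comparisons, which share the control arrays.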

How the data were processed

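Abdominal fat RNA of 12 mice was hybridised to Affymetrix arrays as biotin-labelled cDNA, per the labels. The authors deposited 1 log2 value per probe set and array, made with RMA, per the submitters' processing notes. The sources used here do not give its version, its settings or the probe set definitions. Values ran from 5.62 to 14.4, and sorted columns differed by at most 0.00188, so arrays had been brought to one distribution, which removes changes shared by most genes and compresses low signals. The column of control replicate 1 holds more decimals than the other columns.

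Symbols came from the platform annotation, and 2021 probe sets without one were left out. The linear model of limma 3.58.1 (R 4.3.3, default eBayes) was fitted to all 23185 named probe sets with 1 mean per group over all 12 arrays, with 8 residual degrees of freedom, without a filter. A gene passed when its two-sided p, adjusted by Benjamini-Hochberg, was under 0.05 within each of 9 comparisons and the F test. Alternatives were leaving out each array, array weights, a filter on dim probe sets, trend and robust options, cyclic loess and fits to only the arrays compared. The fit was tested on simulated data. Genes named with every array were those that passed, the 2 with the smallest F p in each of 6 families, and Mmp7, printed by array for its large spread after its values were seen; others were named by role, brightness or spread. The members and lists were chosen with earlier results of these data known. The number of arrays limits precision, and the labels describe separate animals.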

Additional observations from a re-analysis of the deposited data

Results flagged for a closer look

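The TSC22D4 difference ran in opposite directions in mice without and with the LCN13 shRNA for 2 of the 62 genes, with no overlap between arrays in either case; 0.535% of all genes showed this. For Adamts1 the TSC22D4 arrays lay above control and the combined arrays below LCN13, and the interaction was -0.69 (SE 0.20, 95% interval -1.14 to -0.24, limma adjusted p = 0.384). For Adamts10 the TSC22D4 arrays lay above control and the combined arrays below LCN13, and the interaction was -0.41 (SE 0.07, limma adjusted p = 0.0573). Neither interaction passed with all arrays. Of the 8 interferon-stimulated genes, 5 passed in the interaction, and their part in the Adamts1 and Adamts10 values was not tested. The Adamts1 interaction was -0.89 and passed without combined replicate 16 (adjusted p = 0.00888). The Adamts10 interaction passed without combined replicate 14 (-0.47, adjusted p = 0.00831) and with array weights (adjusted p = 0.0416). Each missed the threshold in the other 11 fits that left out 1 array.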

How the results depend on the processing

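Each of the 7 calls on single genes was lost in some alternatives. All kept their direction in every alternative run, except that the F test call of Ltbp4 has no direction. Ltbp4 in the F test was lost in 10 of 12 fits that left out 1 array, after cyclic loess (0.0551) and without LCN13 replicates 5 and 6 (0.214). Array weights gave 3 of the 62 genes called for TSC22D4 against control, 3 for the combined group against control, 4 for TSC22D4 against LCN13, 1 for the interaction and 5 for the F test, 6 partner genes, and a median interaction of 0.0033. Over all genes, array weights called 447, 518, 1178, 130 and 935 in those comparisons, in that order, each more than as reported. With only probe sets above the median signal, 2 genes were called for TSC22D4, 3 for the combined group and 4 in the F test, with 0 partner genes. Of all genes above that median, 326, 326 and 484 were called. The medians were then 0.022 for LCN13 against control, -0.048 for the combined group against LCN13, -0.031 for TSC22D4 against LCN13, -0.030 for the averaged TSC22D4 effect and -0.048 for the interaction, and 9 genes did not overlap between the combined group and LCN13, against 14 with all probe sets. Trend and robust options called 2 for TSC22D4, 1 for LCN13, 3 for the combined group and 4 in the F test, with 0 partner genes. Over all genes these options called 326, 307, 299 and 426. Cyclic loess called 1 for LCN13 and 0 in the F test, and 315 and 360 over all genes. The 6 arrays compared gave 2 for TSC22D4 and 1 for LCN13, where Ltbp4 was lost (difference 0.45, adjusted p = 0.139). Those fits called 142 and 102 over all genes. Without LCN13 replicates 5 and 6, chosen after the data were seen, 0 were called for LCN13, for the averaged TSC22D4 effect, for the averaged LCN13 effect and in the F test; Thbs1 averaged -0.40 (adjusted p = 0.334), Thbs2 -0.35 (0.332) and Ltbp4 0.27 (0.199).

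Leaving out 1 array gave 0 to 2 genes called for each shRNA group against control, 0 to 0 for the combined group against LCN13, 0 to 1 for it against TSC22D4, 0 to 1 for TSC22D4 against LCN13, 0 to 2 for the averaged TSC22D4 effect, 0 to 1 for the averaged LCN13 effect, 0 to 1 for the interaction, 0 to 3 in the F test and 0 to 3 partner genes. The median interaction ran from -0.032 to 0.012 and the median for LCN13 against control from -0.020 to 0.019. Genes that did not overlap, fewer arrays making this easier, were 12 to 18 for TSC22D4 (9 with all arrays), 14 to 22 for LCN13 (12), 11 to 18 for the combined group (9), 15 to 25 for it against LCN13 (14), 10 to 16 for it against TSC22D4 (5), 22 to 32 for TSC22D4 against LCN13 (20), 1 to 2 for the averaged TSC22D4 effect and 1 to 3 for the averaged LCN13 effect. Non-overlap over all genes was not counted under the alternatives. The cause of these changes was not tested. Over the alternatives, all genes called ran from 142 to 447 for TSC22D4 (272 as reported), 100 to 680 for LCN13 (333), 126 to 518 for the combined group (311), 0 to 94 for it against LCN13 (2), 0 to 4 for it against TSC22D4 (0), 0 to 1178 for TSC22D4 against LCN13 (239), 61 to 810 for the averaged TSC22D4 effect (323), 90 to 614 for the averaged LCN13 effect (251), 35 to 130 for the interaction (92) and 171 to 935 in the F test (374). Signal over background limits the 22 dim genes. No paired analysis was possible because the groups share no replicate numbers.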
